A study of Mus musculus with 21 samples.

Results

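Bone marrow derived dendritic cells that lacked both c-Rel and RelB were compared with cells that lacked RelB alone, 8 and 24 h after a Toll-like receptor ligand was added. The members are the 8 arrays of these genotypes in 4 late conditions (CpG for 8 h, CpG for 24 h, Pam3CSK4 for 8 h and Pam3CSK4 for 24 h), out of 21 arrays in the series. Each genotype had 1 array in each condition, and the arrays were paired by condition. The labels give C57Bl6 as the strain of all cells. Control cells carried the relb-/- allele alone, and the compared cells carried crel-/- and relb-/- together. The deletion of Relb was therefore shared by all 8 arrays. By label the genotypes differ in c-Rel, and its loss cannot be told apart here from other differences between the cells. CpG is a DNA ligand of TLR9, and Pam3CSK4 is a lipopeptide ligand of TLR2 with TLR1. Wild-type (WT) cells in the same 4 conditions, and the cells of each genotype at 0 and 1 h, are given beside the results as levels. The labels name neither the animals nor the cultures behind the arrays, so the p-values below measure how constant a difference was over the 4 conditions, which may be technical.

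NF-kB is a family of transcription factors that act as dimers. The subunits RelA, c-Rel and RelB carry a domain that activates transcription, while p50 and p52 lack one. In resting cells the dimers are held in the cytoplasm by inhibitors of the IkB group, and Toll-like receptor signals release them within minutes. RelB is usually linked with the slower pathway through the kinase NIK, and c-Rel with lymphocytes and antigen-presenting cells. In dendritic cells both are known for their part in maturation, the passage from an antigen-sampling cell to one that carries costimulatory molecules and activates T cells.

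The files give 1 normalised fluorescence intensity per probe and array. Intensities had nearly the same centre on every array, with medians of 47.1 to 47.4, and many probes lay close to that level, which is the floor against which low genes were read. Of 16593 named genes, 10587 (63.8%) passed the filter on low values and were tested. Differences are crel-/-relb-/- minus relb-/- on the log2 scale, given as the mean over the 4 conditions ± its standard error (SE, n = 4 pairs). The SE rests on limma's moderated variances and not on the spread of the 4 pairs alone. The adjusted p is that of limma's paired fit over all tested genes. A gene was called where this p was under 0.05. One late array was unlike the others, that of crel-/-relb-/- cells after CpG for 24 h. Its residual SD after genotype and condition were fitted to the 12 late arrays was 0.164 log2 units, against 0.0933 to 0.127 on the other 11, and 101 genes on it lay over 0.5 from their fitted value. Counts are therefore given with and without that condition, and so are the differences of the genes with the largest gaps. Where another gene given with its adjusted p lost its call without it, the adjusted p of that fit stands beside it. Values of a gene in the 4 conditions are listed in the order CpG 8 h, CpG 24 h, Pam3CSK4 8 h and Pam3CSK4 24 h.

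The targeted gene Rel, which encodes c-Rel, read 109, 101, 107 and 107 in relb-/- cells and 37.2, 45.5, 35.4 and 35.6 in crel-/-relb-/- cells. All 4 values of the double mutant lay below the median intensity of the arrays, and the groups did not overlap. The difference was -1.47 ± 0.10 (adjusted p = 2.18e-05). WT cells gave 93.4, 61.1, 107 and 88.1. Relb read 153, 129, 131 and 109.7 in relb-/- cells and 179.7, 99.6, 170.4 and 97.8 in crel-/-relb-/- cells, and the groups overlapped, with a difference of 0.02 ± 0.14 (adjusted p = 0.958). WT levels of Relb were higher, at 236, 228, 235 and 267. It is not known here whether either probe lies within the deleted part of its gene.

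Of the 10587 genes, 687 (6.49%) were called: 356 (3.36%) were higher and 331 (3.13%) lower in crel-/-relb-/- cells. Large differences were mostly losses, since 69 of the 93 called genes that differed by at least 2-fold were lower and 24 were higher. Without CpG 24 h, 530 genes (5.01%) were called, 282 higher (2.66%) and 248 lower (2.34%). The calls shared by both fits numbered 455, and all 687 genes kept their sign when CpG 24 h was left out. The median difference over all tested genes was 0.01. For 931 genes (8.79%) the 4 values of one genotype did not overlap with those of the other.

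**Figure D1:**
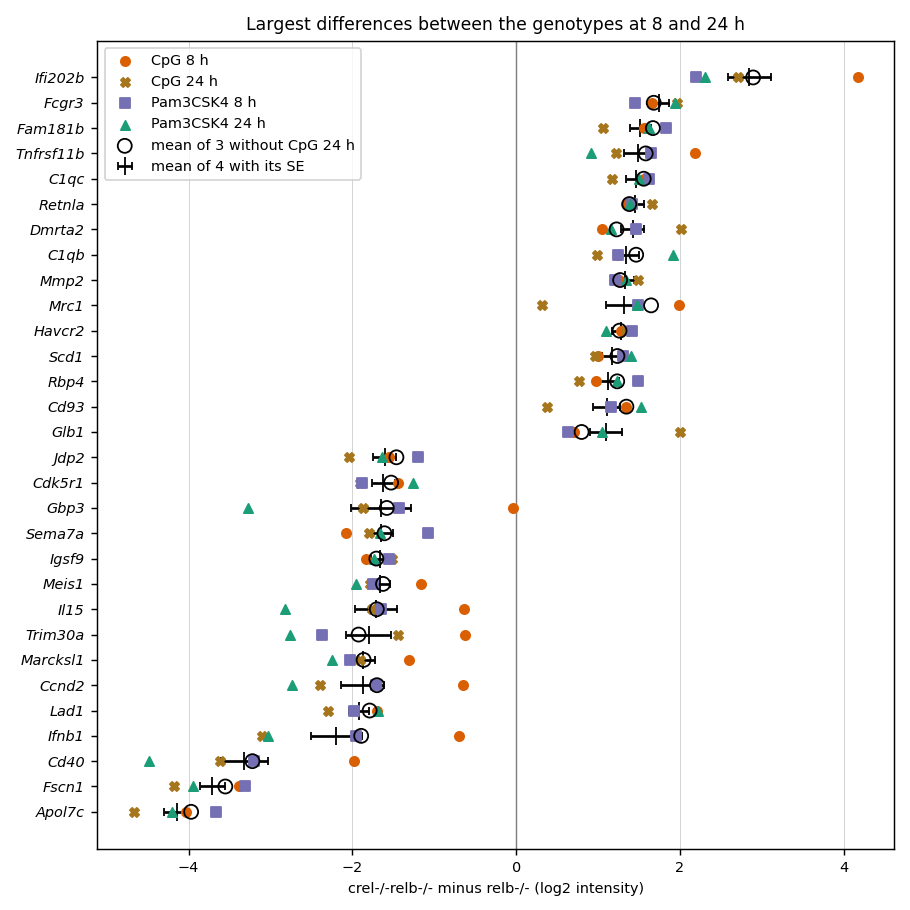
The 15 genes with the largest higher and the 15 with the largest lower difference among called genes of constant sign (log2 intensity, crel-/-relb-/- minus relb-/-), with 1 point per condition, a bar for the mean of 4 and its SE, and an open circle for the mean of 3 without CpG 24 h. Apol7c, Fscn1 and Cd40 lie furthest to the left and Ifi202b furthest to the right. The points of Gbp3 spread from -0.04 to -3.27.

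Of these 30 genes 29 were called without CpG 24 h, all but Gbp3, and the 30 kept their sign. The losses were then -3.97 for Apol7c, -3.55 for Fscn1, -3.22 for Cd40, -1.89 for Ifnb1, -1.92 for Trim30a, -1.86 for Marcksl1, -1.79 for Lad1 and -1.71 for Igsf9, and -1.70 for Il15, -1.70 for Ccnd2, -1.63 for Meis1, -1.61 for Sema7a, -1.53 for Cdk5r1 and -1.46 for Jdp2. The gains were 2.89 for Ifi202b, 1.68 for Fcgr3, 1.67 for Fam181b, 1.58 for Tnfrsf11b, 1.56 for C1qc, 1.46 for C1qb, 1.65 for Mrc1 and 1.38 for Retnla, and 1.34 for Cd93, 1.27 for Mmp2, 1.26 for Havcr2, 1.24 for Scd1, 1.23 for Rbp4, 1.23 for Dmrta2 and 0.80 for Glb1. Glb1 moved most in proportion, and its gain was largest at 24 h with CpG, outside the 0.64 to 1.05 of the other conditions.

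Genes of dendritic cell maturation were often lower, and they include Fscn1 and Cd40, 2 of the 3 largest single losses. Of 27 tested genes on a list of maturation and costimulation genes, 17 were lower and 0 higher in crel-/-relb-/- cells. Without CpG 24 h 16 were lower and 0 higher. Of all tested genes 3.13% were lower, or 2.34% without CpG 24 h. The list was chosen with earlier results of these data known, so its counts are a description and not a test. The list's median difference was -0.78, or -0.84 without CpG 24 h. For 14 of the 27 the genotypes did not overlap, against 8.79% of all tested genes.

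Apol7c, an apolipoprotein L family gene, had the largest difference of all tested genes. Its intensities were 1437, 1816, 1538 and 1538 in relb-/- cells and 87.9, 71.3, 121 and 83.3 in crel-/-relb-/- cells. The lowest relb-/- value was more than 10 times the highest double-mutant value. The difference was -4.14 ± 0.15 (adjusted p = 2.09e-07), a mean 17.7-fold lower level. WT cells lay between the mutants, at 788, 586, 681 and 356.

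Fscn1 encodes fascin, the actin-bundling protein of the long processes of mature dendritic cells. It read 1379, 1356, 776 and 941 in relb-/- cells and 132, 74.7, 77.9 and 61 in crel-/-relb-/- cells, and the groups did not overlap. The difference of -3.71 ± 0.15 (adjusted p = 3.63e-07) is a mean 13.1-fold lower level. WT cells gave 2465, 1553, 1469 and 858, above relb-/- cells in 3 of the 4 conditions. The double mutant was nearest to the floor, and lower than both other genotypes in each condition.

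Cd40, the receptor through which T helper cells act on dendritic cells, read 5845, 4267, 3884 and 3446 in relb-/- cells and 1479, 349, 423 and 154 in crel-/-relb-/- cells. The groups did not overlap, and the double mutant was highest at 8 h with CpG. The 4 differences were -1.98, -3.61, -3.20 and -4.48, with a mean of -3.32 ± 0.29 (adjusted p = 8.67e-05). The other 3 probes of Cd40 gave differences of -0.56, -2.74 and -1.36, all called. WT values of Cd40, 4194, 1281, 2682 and 734, were below those of relb-/- cells in each condition.

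The paired ligands of CD28 on T cells moved less. Cd86 read 2193, 1815, 1829.5 and 1786 in relb-/- cells and 1359.8, 887, 767 and 382 in crel-/-relb-/- cells, a difference of -1.30 ± 0.20 (adjusted p = 0.00348). Cd80 read 1171, 1013, 1082 and 834 in relb-/- cells and 656, 619, 412 and 249 in crel-/-relb-/- cells, a difference of -1.17 ± 0.17 (adjusted p = 0.00191). Neither gene's groups overlapped. In both genes the difference was largest at 24 h with Pam3CSK4.

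Ccr7, the receptor that guides mature dendritic cells to lymph nodes, read 849, 675, 597 and 544 in relb-/- cells and 427, 434, 294 and 258 in crel-/-relb-/- cells. It differed by -0.93 ± 0.12 (adjusted p = 0.00118) with no overlap. Ccl22, a chemokine of mature dendritic cells that attracts regulatory T cells, differed by -1.52 ± 0.15 (adjusted p = 2.04e-04). Stat4, which carries the signal of interleukin-12, differed by -1.40 ± 0.12 (adjusted p = 9.99e-05). The actin regulator Marcksl1 read 1058, 859.8, 1065 and 1236 in relb-/- cells and 426, 229, 261 and 261 in crel-/-relb-/- cells, a difference of -1.87 ± 0.15 (adjusted p = 6.56e-05). Its groups did not overlap either.

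Not all maturation genes were called. Cd83, a surface marker of mature dendritic cells, read 1031, 1215, 865 and 1086 in relb-/- cells and 1103, 872, 960.4 and 748 in crel-/-relb-/- cells and differed by -0.19 ± 0.14 (adjusted p = 0.496). The groups overlapped. The inhibitory ligands Cd274, with -0.03 ± 0.19, and Pdcd1lg2, with 0.03 ± 0.11, had adjusted p-values of 0.938 and 0.908. Tnfsf4, the ligand of OX40 on T cells, differed by 0.20 ± 0.12 (adjusted p = 0.381).

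**Figure D2:**
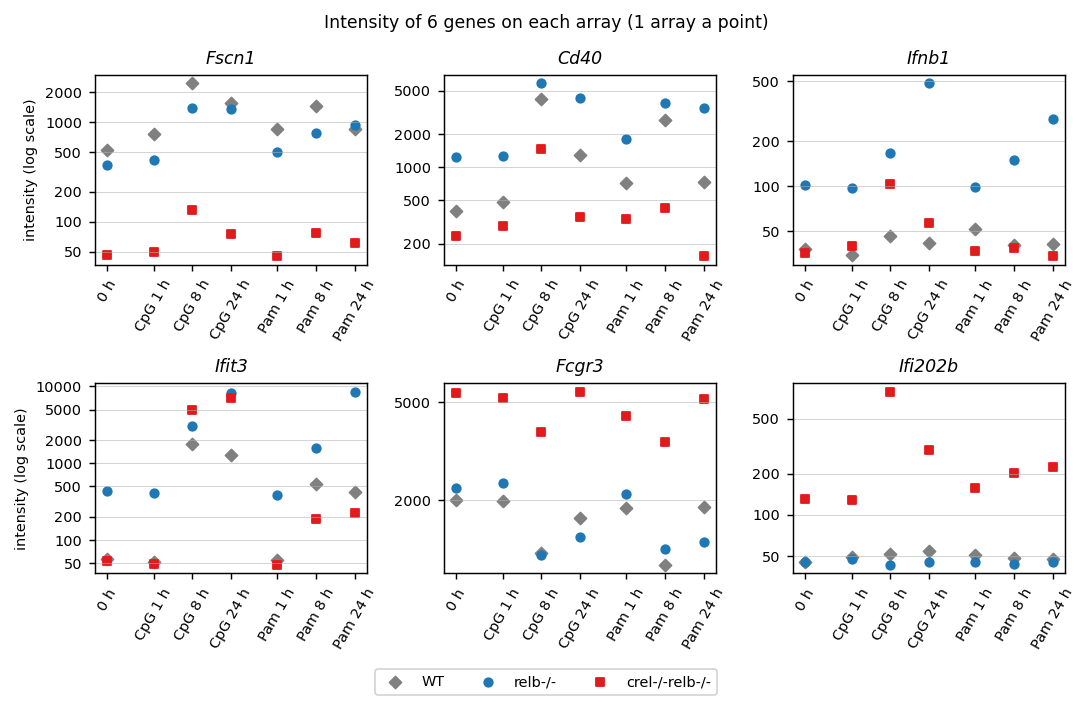
Intensities of 6 genes (log scale) on each array by condition, with WT as diamonds, relb-/- as circles and crel-/-relb-/- as squares; Pam stands for Pam3CSK4. The squares of Fscn1 and Cd40 lie below both other genotypes in every condition. Those of Ifit3 lie above WT at 8 and 24 h with CpG and below WT at 8 and 24 h with Pam3CSK4, and those of Fcgr3 and Ifi202b lie above both.

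Ifnb1 encodes interferon-beta, the cytokine that most cells secrete first after a pathogen signal. It read 167, 487, 150.2 and 279 in relb-/- cells and 103, 56.9, 38.8 and 34.1 in crel-/-relb-/- cells. The groups did not overlap, and the gap was smallest at 8 h with CpG. The 4 differences were -0.69, -3.10, -1.95 and -3.03, with a mean of -2.19 ± 0.31 (adjusted p = 0.00189), or -1.89 without CpG 24 h (adjusted p = 0.0177). WT cells gave 46.5, 41.6, 40.2 and 40.9, all below 47.3, the median of all intensities, as were 2 of the 4 double-mutant values. Before any ligand the level was 102 without RelB, 35.5 without both subunits and 38.3 in WT cells. The interferon-alpha genes Ifna2, with -0.84 ± 0.10 (adjusted p = 6.3e-04), and Ifna4, with -0.48 ± 0.07 (adjusted p = 0.00171), were also lower, and their double-mutant values were all under that median.

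The promoter of Ifnb1 is a textbook target of NF-kB. RefSeq's window from 250 bases before to 50 bases after its start (build GRCm38.p6, chr4:88522745-88523044, minus strand) is shown with 1 match to the kB motif GGGNNNTTCC, searched on both strands, in capitals. Next to it stands the window of Cxcl1 (chr5:90890995-90891294, plus strand), the chemokine gene with the lowest adjusted p among those called lower. It holds 3 matches, 2 of which overlap.
Ifnb1: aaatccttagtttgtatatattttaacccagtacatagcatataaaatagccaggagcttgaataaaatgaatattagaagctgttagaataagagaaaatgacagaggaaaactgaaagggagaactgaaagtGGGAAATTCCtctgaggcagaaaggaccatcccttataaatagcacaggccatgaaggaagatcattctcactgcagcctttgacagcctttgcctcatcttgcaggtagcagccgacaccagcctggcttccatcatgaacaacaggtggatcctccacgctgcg
Cxcl1: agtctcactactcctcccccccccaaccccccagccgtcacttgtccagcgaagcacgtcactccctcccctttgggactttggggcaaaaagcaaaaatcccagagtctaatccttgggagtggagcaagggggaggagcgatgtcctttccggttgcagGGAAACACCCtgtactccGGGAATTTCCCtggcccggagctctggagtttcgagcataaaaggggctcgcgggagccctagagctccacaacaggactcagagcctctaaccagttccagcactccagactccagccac
Of 27025 genes in the promoter table, 6.31% held this motif, and of the 8620 tested genes with a window 7.18% did. Among the 15 largest lower genes, 11 had a window and 1 (Ifnb1) held a match. Of the 15 largest higher genes 11 had a window and 1 (Fcgr3) held a match. A match is a description of the letters and not a binding site.

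Interferon-stimulated genes, which encode antiviral effectors and sensors downstream of the interferon receptor, gave fewer calls, with a wider gap under Pam3CSK4 for some of them. Of 35 tested genes on this list 10 were lower and 1, Ifi202b, was higher. Of all tested genes 3.13% were lower and 3.36% higher. The number lower on the list ran from 1 to 32 over the settings tried. The contrast between ligands, CpG minus Pam3CSK4, was called for 10 of the 35, against 0.151% of all tested genes. Without a trend of the variances on intensity it was called for 0 genes. The list's median difference was -1.04. In single conditions the median was 0.23 at 8 h with CpG, -0.55 at 24 h with CpG, -1.41 at 8 h with Pam3CSK4 and -2.03 at 24 h with Pam3CSK4. With Pam3CSK4, 34 of the 35 were lower in both conditions. Of all 10587 tested genes 5060 were lower at 8 h and 5290 at 24 h. At least 2-fold losses on the list were seen in 24 genes at 8 h and 31 at 24 h with Pam3CSK4. With CpG they were seen in 0 at 8 h and 6 at 24 h. Over all tested genes such losses numbered 102 and 205 with Pam3CSK4, and 38 and 139 with CpG. Without CpG 24 h, 5 listed genes were called lower and 1 higher, against 2.34% and 2.66% of all tested genes. The list's median was then -1.18.

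Ifit3, a translation-restricting antiviral protein gene, had the largest contrast between ligands among the genes called in it. It read 3092, 8256, 1588 and 8474 in relb-/- cells and 4984, 7031, 191 and 223 in crel-/-relb-/- cells. With CpG the genotypes lay within a factor of 2 of each other, and with Pam3CSK4 the double mutant was far lower. The differences were 0.69, -0.23, -3.06 and -5.25. The CpG minus Pam3CSK4 contrast of these differences was 4.38 ± 0.52 (n = 4 pairs, adjusted p = 0.0066). WT cells gave 1772, 1297, 530.3 and 426.

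Isg15, which encodes a ubiquitin-like modifier, read 1357, 2322, 889.5 and 1784 in relb-/- cells and 1591, 1581, 183 and 149 in crel-/-relb-/- cells. Its contrast between ligands was 2.77 ± 0.38 (adjusted p = 0.00857). Rsad2, which encodes viperin, read 5739.8, 11019.9, 4218 and 10994 in relb-/- cells and 10988, 8824, 1124 and 765 in crel-/-relb-/- cells. Here the CpG 8 h value of the double mutant was the higher one, and the contrast was 3.18 ± 0.50 (adjusted p = 0.023). Slfn1, with 3.34 ± 0.46 (adjusted p = 0.00857), and Oasl1, with 2.61 ± 0.44 (adjusted p = 0.0378), were called too. With CpG, Slfn1 differed by -0.22 at 8 h and 0.10 at 24 h, and Oasl1 by 0.01 and -0.81.

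Over all tested genes 16 (0.151%) were called in this contrast between ligands, 15 with a more positive difference under CpG, and 10 of the 16 stood on the interferon list. The one with a more negative difference was Coq3, an enzyme of ubiquinone synthesis, at -1.03 ± 0.18 (adjusted p = 0.0458). The contrast has 2 residual degrees of freedom, and it called 0 genes when variances were moderated without a trend on intensity (516 genes had an unadjusted p under 0.05 without the trend and 549 with it). Without CpG 24 h it called 118 genes, on 1 residual degree of freedom. The array that stood apart is 1 of the 2 double-mutant CpG arrays, and Ifit3, Slfn1 and Isg15 were among its largest residuals, at 1.26, 1.23 and 0.87 log2 units. The CpG 8 h pair, which that array does not touch, gave differences of 0.69 for Ifit3, -0.22 for Slfn1 and 0.23 for Isg15.

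For Ifit3 and Isg15 the gap between the mutants preceded the ligand, with relb-/- cells above both other genotypes and the double mutant near WT cells. Unstimulated Ifit3 read 441 in relb-/-, 53.6 in crel-/-relb-/- and 56.5 in WT cells. Unstimulated Isg15 read 639, 68.9 and 57.3 in the same order of genotypes. Over the 3 early conditions the difference between the mutants averaged -3.05 for Ifit3, -3.29 for Isg15 and -3.41 for Rsad2. Their late minus early contrasts were not called (adjusted p = 0.792, 0.403 and 0.401). At 8 h with CpG, 8 of the 35 listed genes had a difference below 0. At 24 h with CpG, in the pair with the array that stood apart, 33 did. Among all 10587 tested genes 4924 did at 8 h and 5303 at 24 h with CpG.

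The promoter windows of Ifit3 (chr19:34583279-34583578, plus strand) and Isg15 (chr4:156200769-156201068, minus strand), and that of Apol7c (chr15:77533266-77533565, minus strand), hold matches to GAAANNGAAA, the core of the interferon-stimulated response element, on either strand. Capitals mark them.
Ifit3: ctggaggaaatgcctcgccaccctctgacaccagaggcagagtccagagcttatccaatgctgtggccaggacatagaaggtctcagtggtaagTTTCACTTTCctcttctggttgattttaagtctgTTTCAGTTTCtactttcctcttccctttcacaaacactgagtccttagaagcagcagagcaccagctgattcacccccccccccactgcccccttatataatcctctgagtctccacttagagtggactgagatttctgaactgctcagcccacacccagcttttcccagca
Isg15: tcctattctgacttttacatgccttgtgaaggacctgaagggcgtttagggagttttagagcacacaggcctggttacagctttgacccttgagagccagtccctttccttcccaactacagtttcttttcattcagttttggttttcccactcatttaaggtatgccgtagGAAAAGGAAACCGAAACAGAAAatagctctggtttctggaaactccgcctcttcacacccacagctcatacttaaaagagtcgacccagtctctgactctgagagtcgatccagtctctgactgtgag
Apol7c: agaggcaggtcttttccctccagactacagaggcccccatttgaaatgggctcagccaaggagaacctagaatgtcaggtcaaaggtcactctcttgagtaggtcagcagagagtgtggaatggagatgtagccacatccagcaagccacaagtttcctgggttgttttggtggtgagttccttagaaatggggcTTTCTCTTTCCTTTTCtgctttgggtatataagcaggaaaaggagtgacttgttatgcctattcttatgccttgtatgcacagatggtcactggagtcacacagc
Ifit3 and Apol7c held 2 matches each and Isg15 3, and those of Isg15 and Apol7c overlap. The motif was in 3.99% of the genes in the promoter table and in 4.06% of the tested genes with a window. Among the interferon list 16 of 26 genes with a window held it, among the 16 genes of the contrast between ligands 6 of 14, among the 15 largest lower genes 3 of 11 and among the 15 largest higher 0 of 11. The last count says only that these letters were not in those windows.

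**Figure D3:**
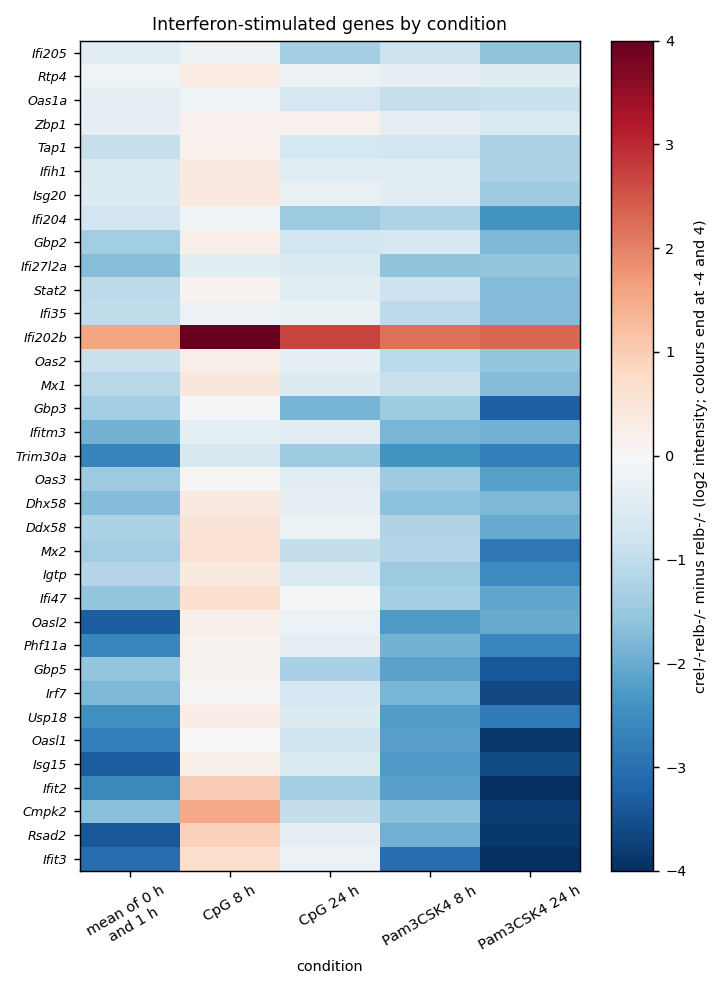
Differences between crel-/-relb-/- and relb-/- cells (log2 intensity, colour) for the 35 interferon-stimulated genes, with the mean of the 0 and 1 h conditions in the left column and the 4 late conditions to its right. Blue is lower in the double mutant; the left and the Pam3CSK4 columns are mostly blue, the CpG 8 h column is pale, and Ifi202b alone is red throughout.

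Some interferon-regulated genes were lower under both ligands. Trim30a, a tripartite-motif protein gene, read 1423, 1628, 1459 and 2313 in relb-/- cells and 920.4, 601, 281 and 339.9 in crel-/-relb-/- cells. Its groups did not overlap, and it was called with -1.80 ± 0.27 (adjusted p = 0.00294). The guanylate-binding protein gene Gbp3 differed by -1.65 ± 0.36 (adjusted p = 0.0211), but its groups overlapped, since it read 2334 in relb-/- and 2270 in crel-/-relb-/- cells at 8 h with CpG. Without CpG 24 h Gbp3 was not called (-1.58, adjusted p = 0.0994). Among regulators of the response, Irf1 was called with -0.79 ± 0.20 (adjusted p = 0.0381) and was not called without CpG 24 h (adjusted p = 0.101). Irf7, the factor that amplifies interferon genes, differed by 0.06, -0.71, -1.81 and -3.61 in the 4 conditions and was not called (adjusted p = 0.0614). Irf3 and Irf8 had differences of 0.14 ± 0.14 and -0.01 ± 0.11 (adjusted p = 0.642 and 0.966). In all, 4 of 19 tested genes of interferon-beta and its regulators were lower and 0 higher, or 3 and 0 without CpG 24 h. Their medians were -0.41 and -0.29. The shares of all tested genes were 3.13% lower and 3.36% higher, or 2.34% and 2.66% without CpG 24 h.

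Ifi202b, a DNA-binding member of the interferon-inducible p200 family whose expression is known to differ among inbred mouse strains, had the largest gain of all. It read 43.4, 45.6, 43.8 and 45.6 in relb-/- cells and 783, 299, 201 and 225 in crel-/-relb-/- cells. All relb-/- values were at the floor, as were those of WT cells (52.2, 54.6, 48.6 and 47.7), and every double-mutant value was above 200. The difference was 2.85 ± 0.26 (adjusted p = 1.05e-04). It was already present in unstimulated cells, with 45.8 in relb-/- and 132 in crel-/-relb-/- cells. Its relatives Ifi204 (-1.31 ± 0.26, adjusted p = 0.0119) and Ifi205 (-0.99 ± 0.18, adjusted p = 0.00863) were lower, and neither was called without CpG 24 h (adjusted p = 0.0665 and 0.056).

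Among cytokines, 7 of 23 tested were lower and 0 higher, and without CpG 24 h 7 were lower and 1 (Tgfb1) was higher. Of all tested genes 3.13% were lower and 3.36% higher, or 2.34% and 2.66% without CpG 24 h. Il15, which sustains natural killer and memory T cells, read 1081, 1472, 803 and 1419 in relb-/- cells and 695, 435, 257 and 201 in crel-/-relb-/- cells. Its groups did not overlap, and the difference was -1.72 ± 0.26 (adjusted p = 0.00275). Tnf, the inflammatory cytokine, read 4077, 1501, 4969 and 3764 in relb-/- cells and 2541, 674, 1703 and 862 in crel-/-relb-/- cells, with overlapping groups but a lower level in each pair, and differed by -1.38 ± 0.19 (adjusted p = 0.00171). Il1b read 5259, 1304, 10668 and 7114 in relb-/- cells and 2633, 837, 4058 and 1852 in crel-/-relb-/- cells. Its level depended strongly on ligand and time in both genotypes, and the paired difference was -1.24 ± 0.18 (adjusted p = 0.00189).

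Il6 was called with -1.17 ± 0.26 (adjusted p = 0.0234), from 915 against 833 at 8 h with CpG to 1341 against 272 at 24 h with Pam3CSK4. Without CpG 24 h it was not called (adjusted p = 0.105). Ebi3, the subunit shared by interleukin-27 and interleukin-35, differed by -1.11 ± 0.12 (adjusted p = 2.86e-04) with no overlap. Il12a, which pairs with the p40 subunit in interleukin-12, read 56.1, 57.4, 74.2 and 128 in relb-/- cells and 53.5, 49.6, 57.3 and 52.5 in crel-/-relb-/- cells and was not called (-0.48 ± 0.16, adjusted p = 0.106). Il23a and Il10 lay near the floor in both genotypes, with mean intensities of 51.9 and 49.4 for Il23a and 42.7 and 45.5 for Il10.

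Chemokines were split. Of 19 tested genes of chemokines and Ccr7, 5 were lower and 1 higher, or 4 and 2 without CpG 24 h. Cxcl1, a neutrophil attractant, read 3622, 2075, 8775 and 8051 in relb-/- cells and 1502, 559.6, 4301 and 2410.5 in crel-/-relb-/- cells, a difference of -1.48 ± 0.14 (adjusted p = 1.75e-04). WT cells gave 988, 304, 2777 and 1582, below both mutants in all 4 conditions. Cxcl2, of the same family, differed by -1.01 ± 0.12 (adjusted p = 6.3e-04). Ccl6 was the higher one, with 0.71 ± 0.14 (adjusted p = 0.0111). Ccl5, Ccl3 and Ccl4, which recruit T cells and monocytes, were not called, with -0.31 ± 0.12, -0.11 ± 0.11 and -0.31 ± 0.20.

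The NF-kB family and its inhibitors had 4 of 20 tested genes lower and 0 higher, with the same counts without CpG 24 h. Rel itself was among the 4. Shares over all tested genes were 3.13% lower and 3.36% higher, or 2.34% and 2.66% without CpG 24 h. Nfkbia, which encodes the inhibitor IkBa, read 2243, 1948, 2189.9 and 1607 in relb-/- cells and 1749, 1028, 1418 and 973 in crel-/-relb-/- cells and differed by -0.66 ± 0.12 (adjusted p = 0.00882). The signalling adaptor Traf1 (-1.15 ± 0.17, adjusted p = 0.00248) and the ubiquitin ligase Birc2 (-0.85 ± 0.16, adjusted p = 0.00946) completed the list. The other subunits measured, Rela (0.05 ± 0.12) and Nfkb2 (-0.09 ± 0.13), were not called (adjusted p = 0.855 and 0.761). Of 17 Toll-like receptors and adaptors limma called 0, against 6.49% of all genes, with 1 at an unadjusted p under 0.05. Tlr2, the receptor of Pam3CSK4, differed by 0.11 ± 0.11 (adjusted p = 0.652), and Tlr1 by -0.33 ± 0.10 (adjusted p = 0.089).

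Genes of the BCL2 family set the threshold of mitochondrial apoptosis. Of 12 tested members 4 were lower and 0 higher, with and without CpG 24 h. Among all tested genes 3.13% were lower and 3.36% higher, or 2.34% and 2.66% without CpG 24 h. The largest of the 4 differences was that of Bcl2l11, which encodes the death-promoting protein Bim. It read 469.8, 574, 499 and 702 in relb-/- cells and 190.3, 243, 178 and 237 in crel-/-relb-/- cells, a difference of -1.40 ± 0.12 (adjusted p = 7.19e-05) without overlap. Bmf, also death-promoting, differed by -0.53 ± 0.10 (adjusted p = 0.0128). The survival genes Bcl2l1, which encodes Bcl-xL, with -0.84 ± 0.12 (adjusted p = 0.00173), and Bcl2a1d, with -0.59 ± 0.12 (adjusted p = 0.0167), were lower as well. The members that moved therefore include genes of both kinds. Bcl2a1d has near-identical copies whose RNA its probe may share.

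Fcgr3, which encodes an activating receptor for IgG, had the second-largest gain. It read 1200.1, 1418, 1264 and 1349 in relb-/- cells and 3787, 5509, 3442 and 5149 in crel-/-relb-/- cells. The lowest double-mutant value was more than 2 times the highest relb-/- value, and the difference was 1.75 ± 0.12 (adjusted p = 2.33e-05). WT cells gave 1215, 1688, 1093 and 1880.2, close to relb-/- cells. In unstimulated cells the difference was already 1.29. Fcgr4 was also higher, by 0.85 ± 0.14 (adjusted p = 0.00564), with overlapping groups, its values in both genotypes being higher at 24 h than at 8 h. Fcer1g, the signalling chain that these receptors share, was lower. It read 9593, 11415, 9080.4 and 12963 in relb-/- cells and 5468, 6571, 4777 and 7448 in crel-/-relb-/- cells, a difference of -0.83 ± 0.09 (adjusted p = 3.24e-04). The inhibitory receptor gene Fcgr2b was not called (0.18 ± 0.13, adjusted p = 0.486). Fcgr1 was not called either, at -0.69 and lower in 3 of the 4 conditions.

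Several genes used as marks of macrophages were higher. Of 9 tested macrophage and monocyte genes 5 were higher and 0 lower, with the same counts without CpG 24 h. Among all tested genes 3.36% were higher and 3.13% lower, or 2.66% and 2.34% without CpG 24 h. The number higher on the list ran from 1 to 6 over the settings tried. Its median difference was 0.45. The complement genes C1qc and C1qb encode chains of C1q. C1qc read 135, 209, 95.6 and 108 in relb-/- cells and 397, 470, 294 and 305 in crel-/-relb-/- cells, a difference of 1.46 ± 0.12 (adjusted p = 6.56e-05). C1qb read 271, 398, 185 and 148 in relb-/- cells and 639, 789.8, 436 and 560 in crel-/-relb-/- cells, a difference of 1.35 ± 0.15 (adjusted p = 4.72e-04). Neither overlapped, and WT values, 391, 525, 299 and 236 for C1qc and 699.6, 899.7, 477 and 380 for C1qb, were nearer to the double mutant than to relb-/- cells in all 4 conditions.

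Mrc1, the mannose receptor, read 116, 139, 112 and 65.8 in relb-/- cells and 458, 172, 313 and 182 in crel-/-relb-/- cells. Its difference of 1.31 ± 0.21 (adjusted p = 0.00443) was smallest in the array that stood apart, at 0.31 against 1.47 to 1.99 elsewhere, and it was 1.65 without CpG 24 h. Mertk, a receptor for the uptake of dying cells, differed by 0.88 ± 0.14 (adjusted p = 0.00422), and Adgre1, which encodes the F4/80 antigen, by 0.45 ± 0.10 (adjusted p = 0.0215). Lyz2, the most intense gene of this list, read 22415, 23565, 19283 and 23676 in relb-/- cells and 20988, 22286, 20074 and 23419 in crel-/-relb-/- cells and was not called (-0.03 ± 0.08, adjusted p = 0.855). Nor was Cd14 (-0.13 ± 0.13, adjusted p = 0.609). Fcgr1, also on this list, went the other way, at -0.69 and lower in 3 of the 4 conditions, and was not called. Retnla, a mark of alternatively activated macrophages, read 197, 75.5, 206 and 82.1 in relb-/- cells and 500.3, 237, 549 and 214 in crel-/-relb-/- cells, a difference of 1.45 ± 0.11 (adjusted p = 4.78e-05) with no overlap. Arg1, of the same state, differed by 0.81 ± 0.13 (adjusted p = 0.00525). Chil3, placed on the neutrophil list below, differed by 0.07, higher in 2 conditions and lower in 2.

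The remaining large gains had varied roles. Tnfrsf11b, which encodes the decoy receptor osteoprotegerin, read 60.5, 65.4, 52.8 and 63.3 in relb-/- cells and 275, 152, 165 and 119 in crel-/-relb-/- cells and differed by 1.49 ± 0.17 (adjusted p = 5.91e-04). Havcr2, which encodes the inhibitory receptor TIM-3, read 73.3, 82.8, 70.2 and 97.7 in relb-/- cells and 177, 209.6, 187 and 208 in crel-/-relb-/- cells and differed by 1.28 ± 0.11 (adjusted p = 7.19e-05). Mmp2, a gelatinase gene, differed by 1.32 ± 0.11 (adjusted p = 8.1e-05) and the retinol carrier gene Rbp4 by 1.12 ± 0.14 (adjusted p = 7.71e-04). These last 2 were higher in each of the 4 pairs although their groups overlapped. Scd1, the fatty acid desaturase, Cd93 and Glb1, the lysosomal beta-galactosidase, differed by 1.17 ± 0.12, 1.10 ± 0.17 and 1.10 ± 0.20, the last with its largest value on the array that stood apart. Fam181b (1.52 ± 0.13) and Dmrta2 (1.42 ± 0.14) complete the 15. All 15 were also higher in unstimulated crel-/-relb-/- cells, by 0.57 (Glb1) to 1.56 (Tnfrsf11b), so these gains were not confined to late conditions.

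The remaining large losses were equally mixed. Ccnd2, which encodes cyclin D2, read 4770, 3180.5, 3595 and 2378 in relb-/- cells and 3043, 604, 1100.2 and 355 in crel-/-relb-/- cells, with overlapping groups and a difference of -1.87 ± 0.26 (adjusted p = 0.0018). Sema7a, a membrane semaphorin, differed by -1.65 ± 0.15, the transcription factor genes Meis1 and Jdp2 by -1.67 ± 0.13 and -1.61 ± 0.14, and Cdk5r1, an activator of the kinase Cdk5, by -1.62 ± 0.14. Lad1 and Igsf9 differed by -1.92 ± 0.12 and -1.66 ± 0.11. Of the 30 genes 26 had no overlap between the genotypes, against 8.79% of all tested genes; since the 30 were chosen for size and constancy in this comparison, that share is a description.

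Antigen presentation gave calls in both directions. Of all tested genes 3.36% were higher and 3.13% lower, or 2.66% and 2.34% without CpG 24 h. Of 14 tested genes of MHC class II presentation 2 were higher and 1 lower, or 4 and 1 without CpG 24 h. H2-Eb1 read 1850.4, 2171, 1641 and 2163 in relb-/- cells and 3193, 2814, 3587 and 3107 in crel-/-relb-/- cells, a difference of 0.70 ± 0.13 (adjusted p = 0.01) with no overlap. Ifi30, the thiol reductase of endosomes, was higher by 0.54 ± 0.11 (adjusted p = 0.0174). H2-Ab1 and Cd74 were called without CpG 24 h only, with 0.67 and 0.48 there. The gene that was lower was Cd1d1, the molecule that presents lipids to natural killer T cells. It read 1534, 1525, 1526 and 1533 in relb-/- cells and 542, 437, 503 and 539 in crel-/-relb-/- cells, and its difference of -1.60 ± 0.11 (adjusted p = 2.73e-05) varied little between conditions. For MHC class I and peptide loading 3 of 19 were lower and 0 higher, Tapbpl, Psmb10 and Psme1, with differences of -0.72, -0.64 and -0.55 and a median over the list of -0.28. The counts were again 3 and 0 without CpG 24 h, while Psme1 was not called (adjusted p = 0.0529). B2m was not called (0.09 ± 0.12, adjusted p = 0.73).

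Some metabolic genes were higher, where 3.36% of all tested genes were, or 2.66% without CpG 24 h. Cholesterol biosynthesis had 5 of 14 tested genes higher and 0 lower, or 3 and 0 without CpG 24 h, with a median of 0.38 in both fits. Mvd (0.59 ± 0.11, adjusted p = 0.0102) and Stard4 (0.57 ± 0.12, adjusted p = 0.0149, or 0.051 without CpG 24 h) were among them. Glycolysis and hypoxia had 5 of 18 higher and 0 lower, or 3 and 0 without CpG 24 h. Pfkl, a phosphofructokinase subunit gene, read 416, 1009.7, 443 and 1119.6 in relb-/- cells and 810.5, 1919.9, 735 and 1564 in crel-/-relb-/- cells, a difference of 0.78 ± 0.12 (adjusted p = 0.00372). Oxidative phosphorylation had 1 of 17 higher, or 0 without CpG 24 h, and the cell cycle list 1 of 20 higher and 2 lower, or 0 and 2. The 2 lower genes were Ccnd2 and Tyms, where 3.13% of all tested genes were lower.

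Smaller lists were mixed, where 3.36% of all tested genes were higher and 3.13% lower, or 2.66% and 2.34% without CpG 24 h. Of 22 inflammatory enzymes and effectors 1 (Arg1) was higher and 2 (Saa3 and Lcn2) were lower, or 2 and 3 without CpG 24 h. Nos2, which makes nitric oxide, was not called (0.06 ± 0.23, adjusted p = 0.911). Of 19 immediate-early genes 3 were lower and 0 higher, or 1 and 0 without CpG 24 h. Dusp2, a phosphatase of MAP kinases, was lower in both, with -1.20 ± 0.12 (adjusted p = 2.86e-04). Of 14 heat shock and unfolded protein genes 1 (Hspa1a) was lower, or 0 without CpG 24 h.

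**Figure D4:**
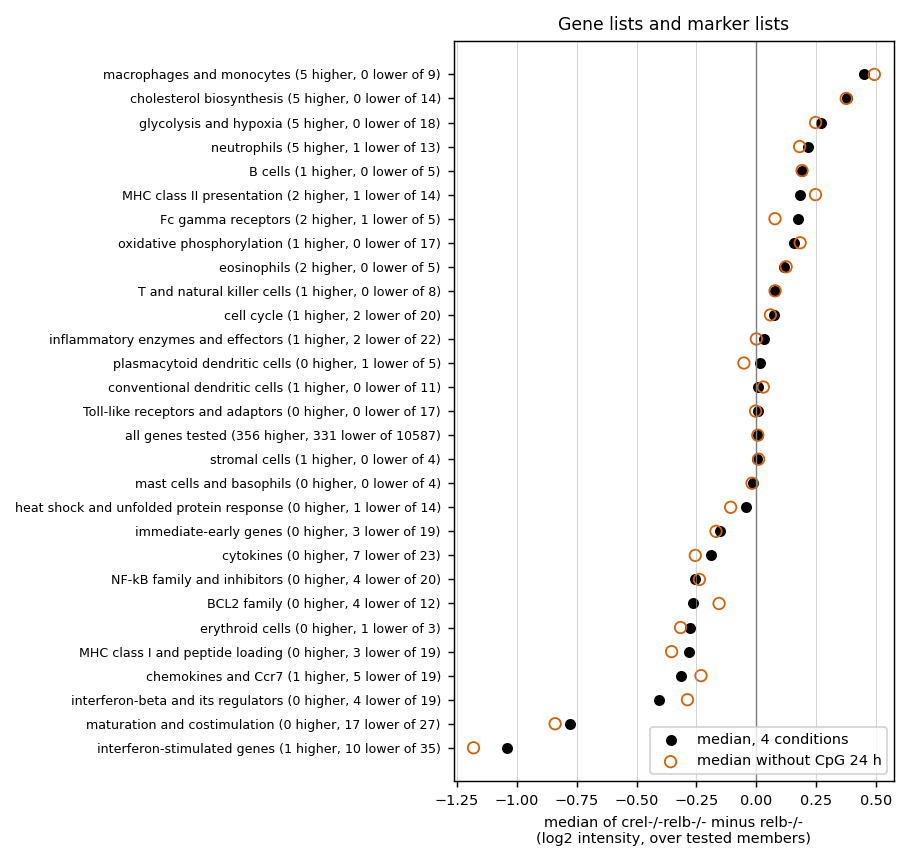
Median difference between the genotypes (log2 intensity) over the tested members of each list, with all 4 conditions (filled) and without CpG 24 h (open), and the counts of called genes beside each name. Interferon-stimulated and maturation genes lie furthest to the left, at -1.04 and -0.78, and the macrophage and monocyte list furthest to the right, at 0.45.

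These cultures are bulk samples, so fewer cells of a type and less RNA per cell cannot be told apart. Markers of conventional dendritic cells were present in both genotypes, with Itgax, which encodes CD11c, at mean intensities of 203 and 277 and Zbtb46 at 90.8 and 74 in relb-/- and crel-/-relb-/- cells. Of 15 such markers 11 were tested, and Flt3, Xcr1, Clec9a and Cd209a did not pass the filter. Itgax was the one called, higher by 0.44 ± 0.11 (adjusted p = 0.0362). The summed intensity of the dendritic cell list ran from 2963 to 4225 in relb-/- and from 2994 to 4478 in crel-/-relb-/- cells, and that of the macrophage list from 23888 to 31848 and from 26306 to 34323. Macrophage markers moved with the gains above, and their part in those results was not tested.

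Granulocyte markers moved as well, where 3.36% of all tested genes were higher and 3.13% lower, or 2.66% and 2.34% without CpG 24 h. Of 13 tested neutrophil genes 5 were higher and 1 (Lcn2) lower, or 4 and 1 without CpG 24 h. S100a9 read 110.5, 46.5, 128 and 42.1 in relb-/- cells and 253, 101, 269 and 66.5 in crel-/-relb-/- cells, a difference of 1.01 ± 0.11 (adjusted p = 4.99e-04), and Stfa1 differed by 1.07 ± 0.10 (adjusted p = 1.75e-04). Elane, Csf3r and Cxcr2 had late mean intensities of 43.7, 57 and 40.1 in relb-/- and 53.4, 65.5 and 46.7 in crel-/-relb-/- cells. They lay at or slightly above the floor and were not called. At 0 h Cxcr2 read 233 in relb-/- and 159 in crel-/-relb-/- cells. Ltf, Ngp and S100a8 were higher in each of the 4 late conditions, with means of 0.60, 0.43 and 0.51. Lcn2 and Retnlg were lower in each, and Mmp8 had a mean of -0.32. The list's summed intensity was 27639 to 49603 in relb-/- and 27705 to 48770 in crel-/-relb-/- cells. Chil3 alone read 17565.5 to 20110 in relb-/- cells and 18386 to 21031 in crel-/-relb-/- cells, and made up much of that sum. Of 5 tested eosinophil genes 2 (Ear6 and Prg2) were higher, or 1 without CpG 24 h, while Siglecf, Epx and Il5ra were near the floor. Their summed intensity was 288 to 504 in relb-/- and 383 to 881 in crel-/-relb-/- cells. The part of these cells in the differences was not tested.

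Other lineages had short lists with at most 1 call each, where 6.49% of all tested genes were called. Among 5 plasmacytoid dendritic cell genes 1 (Tcf4) was lower, among 8 T and natural killer cell genes 1 (Nkg7) was higher, and among 5 B cell genes 1 (Cd79b) was higher, or 0 without CpG 24 h. Among 3 erythroid genes 1 (Car2) was lower, among 4 stromal genes 1 (Thy1) was higher, and among 4 mast cell and basophil genes limma called 0, with 0 at an unadjusted p under 0.05. Summed intensities of relb-/- against crel-/-relb-/- cells were 985 to 1707 and 812 to 1906 for the plasmacytoid list, 378 to 461 and 415 to 451 for the T and natural killer cell list, 413 to 553 and 382 to 441 for the B cell list, 245 to 347 and 181 to 264 for the erythroid list, 398 to 846 and 466 to 1305 for the stromal list and 206 to 245 and 203 to 241 for the mast cell list.

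The genotype difference before and shortly after the ligand was set against the late one in a fit over 14 arrays, with 3 early pairs (0 h, CpG 1 h and Pam3CSK4 1 h) and the 4 late pairs. It called 19 genes (0.179%), 13 with a more positive and 6 with a more negative late difference. The 2 genes with the largest losses after Apol7c were not among them. Fscn1 read 369, 419.9 and 503 in the early relb-/- arrays and 46.5, 49.9 and 45.3 in the early crel-/-relb-/- arrays, and its late minus early contrast was -0.53 ± 0.22 (adjusted p = 0.453). Cd40 read 1227, 1254 and 1799 and 233, 291 and 334 on the same arrays, with a contrast of -1.01 ± 0.41 (adjusted p = 0.448).

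Egln3, a prolyl hydroxylase of the hypoxia pathway, had the largest contrast among the 19 called genes. Its early values were 1632, 1522 and 1592 in relb-/- and 676, 650 and 607 in crel-/-relb-/- cells, and its late values 231, 396, 280 and 417 in relb-/- cells and 464, 817, 347 and 498 in crel-/-relb-/- cells. The double mutant was lower before and higher after, and the contrast was 1.95 ± 0.20 (adjusted p = 0.00192). A second probe of Egln3 gave a late difference of -0.03, with an adjusted p of 0.867. Mgarp, a mitochondrial protein gene, and Selenbp1 followed the same order, with 1.57 ± 0.14 (adjusted p = 8.57e-04) and 1.24 ± 0.18 (adjusted p = 0.0197). The actin-severing protein gene Scin had 1.03 ± 0.18 (adjusted p = 0.0481) and Gadd45a, of the DNA damage response, 0.90 ± 0.16 (adjusted p = 0.0486).

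In the other direction, Vcam1, an adhesion molecule and textbook NF-kB target, read 51, 45.3 and 72 early in relb-/- and 41.8, 43.2 and 81.6 in crel-/-relb-/- cells, then 139.6, 109.7, 153 and 105 in relb-/- cells and 75, 40.6, 58 and 43.3 in crel-/-relb-/- cells. Its late values were all above its early ones in relb-/- cells, while those of the double mutant overlapped. The contrast was -1.19 ± 0.16 (adjusted p = 0.0145). Socs2, an inhibitor of cytokine signalling, had a mean difference of -0.07 early and -1.06 late, a contrast of -0.99 ± 0.14 (adjusted p = 0.0197). Apol7c widened its gap, with -1.52 ± 0.27 (adjusted p = 0.0495). Ciita, the master regulator of MHC class II genes, with -0.99 ± 0.15 (adjusted p = 0.0333), and Ppfibp2, with -0.90 ± 0.14 (adjusted p = 0.0372), differed by 0.80 and 0.94 early and by -0.19 and 0.04 late. Without CpG 24 h the fit called 10 genes, and Scin, Gadd45a and Apol7c were not among them (adjusted p = 0.109, 0.0780 and 0.109).

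**Figure D5:**
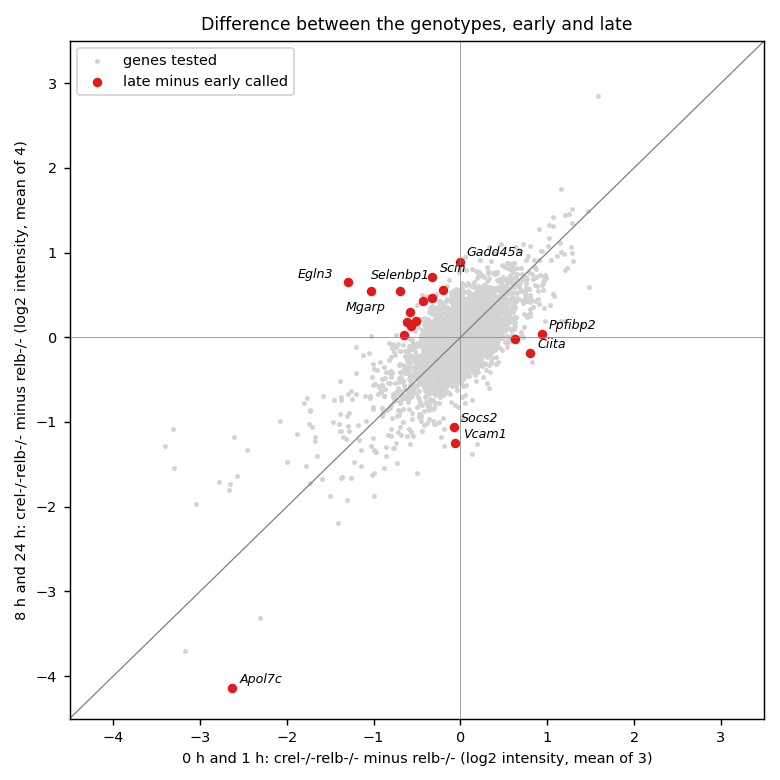
Difference between crel-/-relb-/- and relb-/- cells (log2 intensity) at 8 and 24 h, mean of 4 conditions, against the difference at 0 and 1 h, mean of 3, with 1 point per tested gene. Red points are the 19 genes called in the late minus early contrast; Egln3 lies in the upper left and Apol7c, Vcam1 and Socs2 lie below the line of equal differences.

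Between 24 h and 8 h the genotype difference was called for 0 genes (0%) by limma, with 838 genes at an unadjusted p under 0.05, 0 genes called without the intensity trend and a lowest adjusted p of 0.239. The SD of the differences over genes was 0.303 at 8 h and 0.384 at 24 h with Pam3CSK4, and 144 and 255 genes were at least 2-fold apart. With CpG the SD was 0.274 and 0.388, with 86 and 243 such genes, but that 24 h pair holds the array that stood apart. At 24 h with Pam3CSK4 205 of these were lower in the double mutant and 50 higher, and with CpG 139 and 104.

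Genes beside the targeted loci were read because a knockout made in other cells can carry neighbouring sequence along. The 20 nearest tested genes around Rel on chromosome 11 were taken, 10 on each side in the order of RefSeq's GRCm38.p6 annotation. Of these 1 was higher and 1 lower, where 3.36% of all tested genes were higher and 3.13% lower. The lower one was Pus10, a pseudouridine synthase gene next to Rel. It read 204, 174, 189 and 200 in relb-/- cells and 68.2, 75, 64.2 and 68 in crel-/-relb-/- cells, a difference of -1.48 ± 0.11 (adjusted p = 3.37e-05) as large as that of Rel, while WT cells gave 202, 176, 189 and 176, as high as relb-/- cells. The higher one was Mdh1, with 0.51 ± 0.10 (adjusted p = 0.0101). Of the 20 around Relb, which both genotypes lacked, 2 were lower, Zfp296 and Pvr, with differences of -0.71 and -0.66. The part of the targeted allele or of its flanking sequence in these values was not tested.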

How the data were processed

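Total RNA of bone marrow derived dendritic cells was labelled as biotinylated cRNA and read on Illumina mouse arrays, per the labels' protocols. The deposited values are probe intensities on a linear scale that the authors had normalized between arrays. How they did so, how background was treated and the detection calls are not given in the sources used. The medians of the 21 arrays differed by under 1 unit, and no 2 arrays held identical values. A table of unnormalized signals with 21 columns named by number alone matched no labels and was not used. The number of arrays limits the precision.

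Probes were named through the platform annotation, updated to RefSeq symbols where possible: 23978 of 25697 probes had 1 symbol, 0 had several and 1719 none. The brightest probe stood for each gene, and a gene was kept if at least 3 of the arrays of the series exceeded the median of all values. Of 2775 genes with several such probes, 0 had probes called in opposite directions. Log2 intensities were fitted with limma 3.58.1 (R 4.3.3), with condition as a block, moderated variances with an intensity trend and Benjamini-Hochberg adjustment over all 10587 genes. The fit had 3 residual degrees of freedom, 2 without CpG 24 h, 5 for late against early and 2 for the contrasts of ligand and of time. The named genes are Rel and Relb, the 15 largest called differences each way with 1 sign in all 4 conditions, up to 5 each way in each contrast, the members of 28 lists, and the genes beside Rel and Relb, which with Tgfb1 and the second Egln3 probe were picked after their values were seen. The members and lists were chosen with earlier results of these data known. Promoter windows are RefSeq's, and the figures were drawn with matplotlib 3.10.9.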

Additional observations from a re-analysis of the deposited data

Results flagged for a closer look

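These genes stand here because a test of the difference itself called a changed gap between crel-/-relb-/- and relb-/- cells across groups of conditions. Without the intensity trend 0 genes were called between ligands. Scin, Gadd45a and Apol7c were not called in the late minus early contrast without CpG 24 h. Between late (8 and 24 h) and early (0 and 1 h) conditions the contrasts (log2 units ± SE) were 1.95 ± 0.20 for Egln3, 1.57 ± 0.14 for Mgarp, 1.24 ± 0.18 for Selenbp1, 1.03 ± 0.18 for Scin and 0.90 ± 0.16 for Gadd45a. In the negative direction they were -1.52 ± 0.27 for Apol7c, -1.19 ± 0.16 for Vcam1, -0.99 ± 0.14 for Socs2, -0.99 ± 0.15 for Ciita and -0.90 ± 0.14 for Ppfibp2. Between CpG and Pam3CSK4 they were 4.38 ± 0.52 for Ifit3, 3.34 ± 0.46 for Slfn1, 3.18 ± 0.50 for Rsad2, 2.77 ± 0.38 for Isg15, 2.61 ± 0.44 for Oasl1 and -1.03 ± 0.18 for Coq3. For the 30 genes with the largest late differences, Dixon's test was run on the 4 late log2 values of each genotype and on the 4 differences, 90 sets in all, of which chance alone would single out about 1 in 20. It singled out 2, both in crel-/-relb-/- cells. Glb1 read 1395 at 24 h with CpG, on the array that stood apart, against 614 to 660.4 in the other conditions. Sema7a read 147 at 24 h with Pam3CSK4, against 243 to 269 in the others. The 4 values of a set come from different conditions and are not replicates.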

How the results depend on the processing

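No paired analysis by replicate number was possible because each genotype and condition had 1 array; condition served as the block. The 687 calls became 1564 when all 21 arrays shared 1 spread and 129 (44 higher, 85 lower) without the condition block, and 274 to 624 when 1 of the 4 conditions was left out, lowest without Pam3CSK4 8 h, then 306 without Pam3CSK4 24 h, 530 without CpG 24 h and 624 (256 higher, 368 lower) without CpG 8 h. Other settings (WT arrays added, array weights, no intensity trend, no or a stricter filter, an offset of 16, other normalizations, the mean of probes) gave 622 to 1025. All 30 genes with the largest differences kept their sign under every setting run; 8 lost their call without the block (Retnla, C1qb, Mmp2, Mrc1, Rbp4, Glb1, Ccnd2 and Gbp3), and Gbp3 alone lost it without the intensity trend, with the mean of probes, or without CpG 24 h, Pam3CSK4 8 h or Pam3CSK4 24 h. Relb, never called, ran from -0.10 (without Pam3CSK4 8 h) to 0.15 (without CpG 24 h) when 1 condition was left out, and was -0.06 without CpG 8 h. The 19 late-against-early calls became 10 without CpG 24 h and 13 without the trend. The 16 calls between ligands became 0 without the trend and, in a setting added after seeing the data, 118 without CpG 24 h, on 1 residual degree of freedom. Counts of called list members moved with the settings: lower genes ran from 1 to 32 for interferon-stimulated genes (32 without CpG 8 h), 3 to 12 for interferon-beta and its regulators, 8 to 17 for maturation (8 without the block, 15 to 17 otherwise), 3 to 9 for cytokines, 0 to 9 for chemokines, 2 to 9 for the NF-kB family, 1 to 6 for the BCL2 family, 0 to 8 for MHC class I and 1 to 6 for immediate-early genes, and higher genes from 1 to 6 for macrophages and for neutrophils, 0 to 10 for cholesterol biosynthesis, 0 to 11 for glycolysis, 0 to 5 for oxidative phosphorylation and 0 to 5 for MHC class II. Signal over background could not be set, since no detection calls were used, so differences of genes near 47.3 may be understated.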
